A study of Mus musculus with 4 samples.

Results

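The constant-region genes of the T-cell receptor (TCR) were examined in CD45+ cells of mouse liver. The 7 members, Trac, Trbc1, Trbc2, Trdc, Tcrg-C1, Tcrg-C2 and Tcrg-C4, were taken by their symbols from the 32285 gene rows of the count tables, and all 7 were present. A related gene of the gamma locus, Tcrg-C3, is not a member and reached at most 0.61 CPM over all gated T cells and at most 1.21 CPM in any class of T cells, where CPM is the count of unique molecular identifiers (UMIs, the counted transcripts) of a gene scaled to the UMIs of the same class of cells.

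The study used 10x Genomics 5′ single-cell RNA-seq to ask how loss of miR-146a, and of the chemokine Ccl5 in addition, bears on liver immune cells in a diet and carcinogen model of liver cancer. There were 4 libraries of female C57BL/6 mice, 1 per group, so no group has replicates and no test between groups was possible. The wild-type (WT) untreated library came from 8-week-old mice. The WT, miR-146a-/- and double-knockout (DKO, miR-146a-/- Ccl5-/-) DEN-CDHFD libraries came from 36-week-old mice that received DEN (diethylnitrosamine, a liver carcinogen) at 25 mg/kg on day 14 of life and a choline-deficient high-fat diet from weaning on day 21. Age, diet and DEN therefore differ together between the WT DEN-CDHFD and WT untreated libraries and cannot be told apart, and the number of mice pooled per library is not stated. Values below run in the order WT untreated, WT DEN-CDHFD, miR-146a-/- DEN-CDHFD and DKO DEN-CDHFD.

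The libraries held 90756272, 103165826, 88706063 and 103147246 UMIs, and 10283, 8329, 7824 and 9850 cells were kept after filtering. Any pair of libraries shared between 109 and 150 cell barcodes. The labelled sort and the Ccl5 genotype were checked against the counts, and the miR-146a genotype was not. Ptprc, which encodes CD45, had a UMI in 98.4%, 97.9%, 98.1% and 98.2% of kept cells. Ccl5 in CD8 T cells stood at 11038, 28647, 29623 and 173 CPM, so it was far lower in the DKO library, where 51.1% of CD8 T cells still had a Ccl5 UMI. Cells were placed in classes by marker genes, none of them a member. The T gate (at least 2 UMIs of Cd3d, Cd3e and Cd3g) held 5500, 3414, 3664 and 3508 cells. NK-like and ILC1-like cells had no CD3 UMI and at least 2 UMIs of Ncr1 and Klrb1c, parted by whether markers of natural killer (NK) cells or of type 1 innate lymphoid cells (ILC1) had more UMIs. They numbered 811, 490, 359 and 508, and 420, 564, 333 and 546. B-cell-like cells (1153, 654, 433 and 669) and myeloid cells (441, 742, 1438 and 2466), which should lack TCR transcripts, served as the background.

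A T-cell receptor is a heterodimer of either an alpha and a beta chain or a gamma and a delta chain, and each chain joins a variable region, assembled by V(D)J recombination, to a constant region encoded by the members. The constant region anchors the chain in the membrane and binds the CD3 and zeta subunits that carry the signal. Loci of the TCR can also give germline transcripts, which hold a constant region without a rearranged variable region, in lymphocytes that do not display a receptor. The liver is rich in unconventional T cells, NK cells and ILC1.

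Trac encodes the only alpha constant region (chr14:54220521-54224206, + strand, GRCm38), and Trdc, the delta constant region, lies within the same locus (chr14:54142851-54148868, + strand). Trbc1 (chr6:41538218-41539881) and Trbc2 (chr6:41546730-41548352), both on the + strand, are duplicated beta constant genes, and a rearranged beta chain uses 1 or the other. Their first coding exons, both 375 bases long, differ at 1 base, C260A, with Trbc1 given first and positions counted from 1 at the exon's 5′ end. The 120 bases around it, exon positions 201 to 320, are shown because every comparison of Trbc1 with Trbc2 rests on how well reads tell them apart. The capital marks the differing base.
Trbc1: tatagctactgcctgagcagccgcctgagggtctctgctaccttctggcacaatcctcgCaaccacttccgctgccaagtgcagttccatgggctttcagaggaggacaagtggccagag
Trbc2: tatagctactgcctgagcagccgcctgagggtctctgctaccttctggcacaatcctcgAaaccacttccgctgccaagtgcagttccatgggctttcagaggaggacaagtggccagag
The shown bases are chr6:41538418-41538537 and chr6:41546930-41547049 of GRCm38, + strand. The length of the reads and whether intronic reads were counted are not stated, so windows of 90 bases of spliced sequence were taken as a chosen measure. Of the 286 such windows in the exon, 196 (68.5%) are the same in both genes. Over the whole transcripts, 31.3% of Trbc1 and 33.7% of Trbc2 windows are shared, so a read that lies in shared sequence alone cannot be assigned to either gene.

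In the T gate, Trac stood at 202, 217, 268 and 239 CPM. Inside the T gate its mean over the 4 libraries ran from 297 CPM (SD 48.9) in Treg and 291 CPM (SD 37.7) in PD-1+ CD8 T cells, through 258 CPM in CD4 T cells, 203 CPM in other CD8 T cells, 198 CPM in NKT-like cells (Zbtb16+) and 145 CPM in naive-like CD8 T cells, to 133 CPM in double-negative T cells. Neighbours in that order overlapped in range, while every T class lay above every other class. NK-like cells followed at 13.4 CPM (SD 3.23) and ILC1-like cells at 7.99 CPM (SD 2.45), with overlapping ranges, and both lay above B-cell-like (2.56 CPM) and myeloid cells (1.54 CPM). PD-1+ CD8 T cells held more Trac than naive-like CD8 T cells in 4 of 4 libraries, by a mean log2 ratio of 1.01 (range 0.84 to 1.21).

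Across libraries, Trac in CD8 T cells was 176 CPM (exact Poisson 95% interval 169 to 183), 236 CPM (229 to 243), 286 CPM (278 to 293) and 267 CPM (259 to 276). It was lowest in the WT untreated library and highest in the miR-146a-/- library, and all intervals in the text cover counting error only. The log2 ratio was 0.43 (0.36 to 0.50) for WT DEN-CDHFD over WT untreated, 0.27 (0.22 to 0.33) for miR-146a-/- over WT, and -0.10 (-0.15 to -0.04) for DKO over miR-146a-/-. The makeup of the class differed as well, since PD-1+ cells were 346 of 1528, 1292 of 2070, 1508 of 2314 and 1260 of 2050 CD8 T cells. Trac in PD-1+ CD8 T cells alone gave 246, 275, 330 and 313 CPM and log2 ratios of 0.16, 0.26 and -0.08, and in other CD8 T cells the ratio between the WT libraries was 0.08 (-0.05 to 0.20). In naive-like CD8 T cells that ratio was 0.44 (0.23 to 0.65). The difference between the WT libraries was thus smaller in PD-1+ and other CD8 T cells than over all CD8 T cells, and was not smaller in naive-like cells. The first of the CD8 T ratios moved to 0.26 when B-cell and myeloid UMIs were not limited, and the last to -0.02 when each cell weighed the same. In NKT-like cells Trac was lower in the WT DEN-CDHFD than in the WT untreated library, at 167 against 246 CPM, the opposite order to that in CD8 T cells. Double-negative T cells had this opposite order as well, at 137 against 159 CPM.

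Trbc2 in CD8 T cells, at 245, 409, 467 and 375 CPM, was likewise lowest in the WT untreated and highest in the miR-146a-/- library. Its log2 ratios were 0.74 (0.68 to 0.80), 0.19 (0.15 to 0.24) and -0.31 (-0.36 to -0.27). Trbc1 in CD8 T cells, at 98.1, 255, 229 and 174 CPM, was instead highest in the WT DEN-CDHFD library, with log2 ratios of 1.38 (1.29 to 1.47), -0.16 (-0.22 to -0.10) and -0.39 (-0.46 to -0.32). In PD-1+ CD8 T cells Trbc1 went from 97.1 CPM (86.0 to 109) in the WT untreated library to 350.0 CPM (339 to 361) in the WT DEN-CDHFD library, then 291 CPM (282 to 301) and 211 CPM (202 to 221). The log2 ratio between the WT libraries was 1.85 (1.68 to 2.03) there, against 0.44 (0.34 to 0.53) for Trbc2 in the same cells. In the other subsets Trbc1 did not peak in the WT DEN-CDHFD library, at 99.4, 116, 125 and 129.7 CPM in other CD8 T cells and 96.6, 99.4, 127 and 95.1 CPM in naive-like ones. Their log2 ratios between the WT libraries were 0.22 (0.06 to 0.38) and 0.04 (-0.21 to 0.29) for Trbc1 and 0.37 (0.27 to 0.47) and 0.41 (0.24 to 0.58) for Trbc2. Trbc2 in other CD8 T cells, at 231, 298, 285 and 279.5 CPM, was highest in the WT DEN-CDHFD library. The order of the libraries over all CD8 T cells was thus not that of every subset, and the subsets' shares of the class differed as given above.

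By class, the mean Trbc2 level was highest in PD-1+ CD8 T cells (474 CPM, SD 89.0) and then ran with overlapping ranges through CD4 T (318 CPM), other CD8 T (273 CPM), Treg (252 CPM), NKT-like (233 CPM), naive-like CD8 T (219 CPM), double-negative T (211 CPM) and ILC1-like cells (182 CPM). NK-like cells stood apart at 69.5 CPM (SD 13.6), and myeloid and B-cell-like cells at 3.79 and 3.73 CPM. The mean Trbc1 level was 237 CPM (SD 109.5) in PD-1+ CD8 T cells and 154 CPM (SD 17.6) in ILC1-like cells, the next in order, and 87.6 CPM (SD 17.2) in NK-like cells, the lowest of the lymphoid classes other than B-cell-like cells. The Trbc1 ranges of all these classes overlapped their neighbours. Myeloid and B-cell-like cells were at 3.35 and 2.96 CPM.

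**Figure D1:**
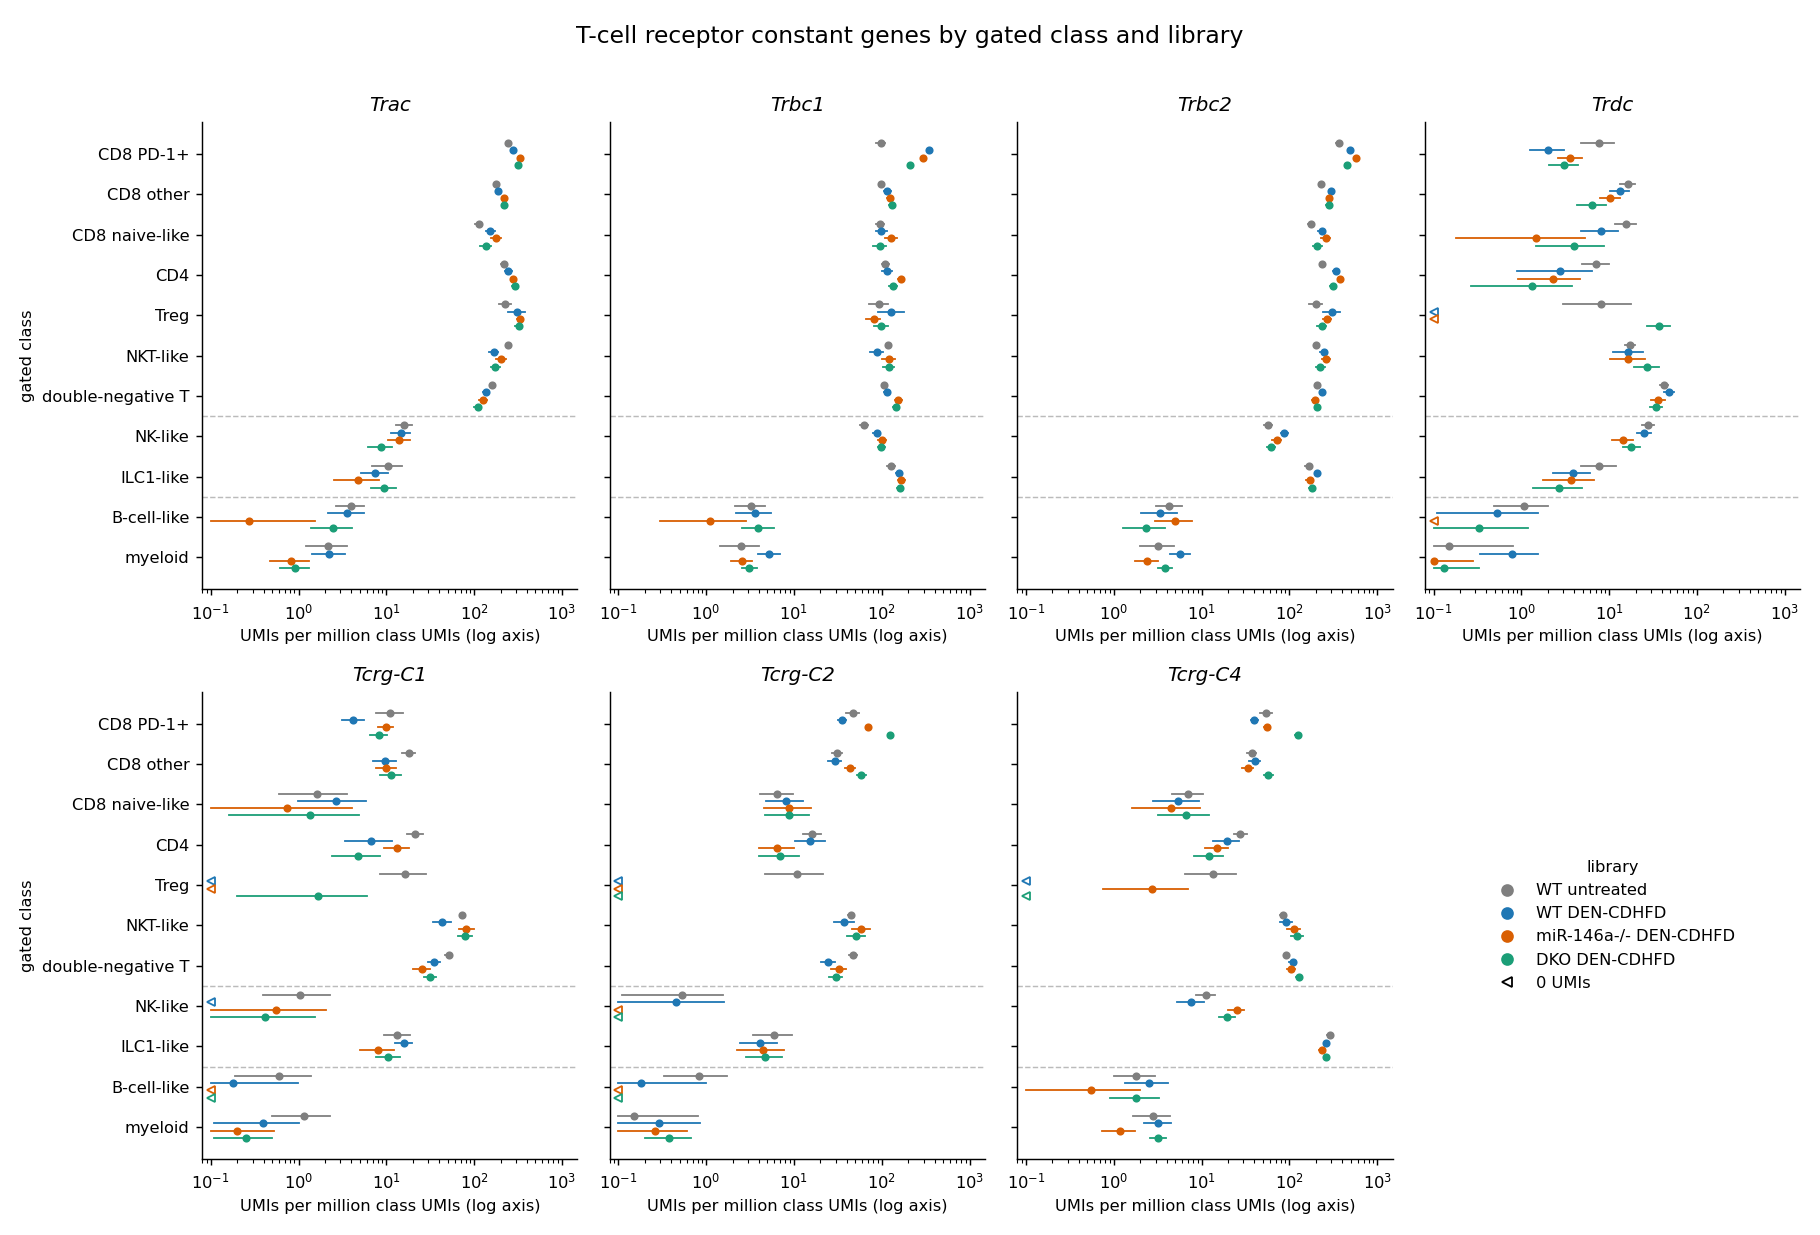
Level of each member in CPM on a log axis by class and library, with exact Poisson 95% bars; levels under 0.1 CPM are drawn at 0.1, open triangles mark 0 UMIs, and dashed lines part the T, innate, and B-cell-like and myeloid classes. Trac separates the T classes from the innate classes, Trbc1 does not, and Tcrg-C4 is highest in ILC1-like cells, at 238 to 287 CPM.

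The balance of the beta constant genes was measured as the percent of Trbc UMIs assigned to Trbc1, which does not depend on the total of the class. In PD-1+ CD8 T cells it was 21.0% (exact binomial 95% interval 18.8% to 23.2%, 281 of 1341 UMIs), 41.4% (40.4% to 42.4%, 3808 of 9195), 33.4% (32.5% to 34.4%, 3378 of 10104) and 31.8% (30.6% to 33.0%, 1928 of 6068). The WT untreated library was lowest and the WT DEN-CDHFD library highest, 20.5 points apart (Newcombe interval 18.0 to 22.8). The miR-146a-/- library lay below the WT DEN-CDHFD library, with a difference of -7.98 points (-9.34 to -6.62), and the DKO differed from miR-146a-/- by -1.66 points (-3.14 to -0.165). Cells of 1 clone are not independent, and no interval here allows for that. UMIs of 1 cell are not independent either, so the share of cells with more Trbc1 than Trbc2 was taken as well. It was 13.1% (37 cells against 246), 35.2% (396 against 728), 23.7% (309 against 996) and 24.4% (260 against 805), with differences of 22.2 points (17.0 to 26.6), -11.6 points (-15.2 to -7.92) and 0.735 points (-2.71 to 4.21). The first 2 differences kept their sign, and the last had an interval that spans 0.

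The Trbc1 percent of UMIs varied less among libraries in other CD8 T cells, at 30.1%, 28.0%, 30.5% and 31.7%, and in naive-like CD8 T cells, at 35.5%, 29.9%, 33.0% and 31.3%. In CD4 T cells it was 31.6%, 25.3%, 30.5% and 30.01%, in Treg 31.6%, 29.7%, 23.1% and 29.5%, and in NKT-like cells 37.2%, 26.2%, 31.5% and 34.6%. Double-negative T cells gave 34.4%, 32.7%, 44.02% and 41.5%, so there the miR-146a-/- library was higher than the WT DEN-CDHFD library, by 11.3 points (7.60 to 15.0). The same difference was 8.42 points (3.2 to 13.6) in NK-like, 6.20 points (2.21 to 10.2) in ILC1-like and 5.19 points (1.43 to 8.81) in CD4 T cells. In Treg it was -6.52 points (-16.0 to 1.90). NK-like cells, at 52.6%, 49.9%, 58.4% and 61.5%, and ILC1-like cells, at 43.4%, 43.3%, 49.5% and 47.1%, lay above the T gate (32.5%, 36.1%, 33.1% and 33.0%) in 4 of 4 libraries.

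**Figure D2:**
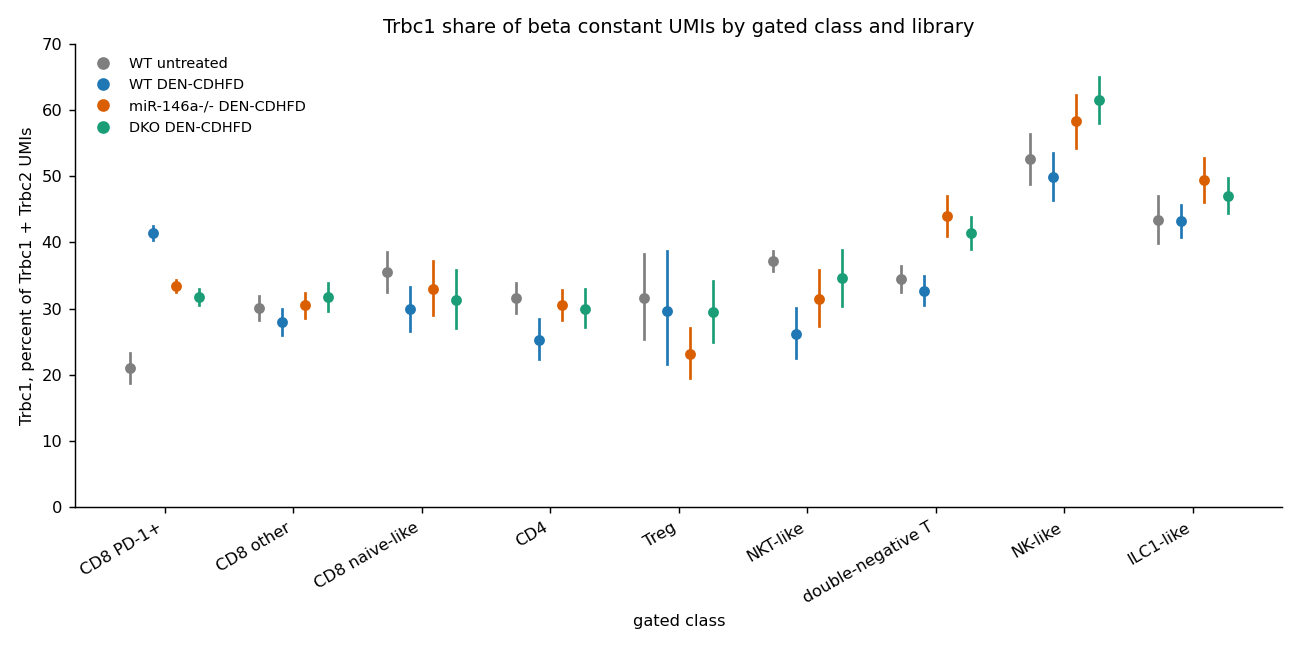
Percent of Trbc UMIs assigned to Trbc1 by class and library, with exact binomial 95% bars. PD-1+ CD8 T cells run from 21.0% to 41.4% over the 4 libraries, and NK-like cells are above the T gate in each.

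A rearranged beta chain uses 1 beta constant gene, and the mix of both was measured in T-gate cells with at least 5 Trbc UMIs. Among those, Trbc1 made up between 10% and 90% in 75.0% (716 of 955), 78.6% (1079 of 1373), 76.5% (1135 of 1483) and 74.1% (776 of 1047). Most cells of that depth therefore held UMIs of both genes, and the cause was not tested. How reads in the shared windows were split between the genes is not recorded in the tables.

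Trbc1 was next set beside the beta variable segment of each PD-1+ CD8 T cell, where a cell counted as of a single segment with at least 5 beta variable UMIs and at least 90% of them from 1 segment; the Trbc1 split by segment was looked at after the shares above were known. In the WT DEN-CDHFD library Trbv17 was the single segment of 381 of 805 cells (47.3%), and these cells had 60.0% Trbc1 (58.2% to 61.7%). Cells of other segments in that library ranged from 50.9% for Trbv13-2 (94 cells) and 31.1% for Trbv1 (122 cells) to 14.1% for Trbv5 (50 cells), which is named for its low value. The Trbc1 percent thus differed between segments inside 1 library. That range cannot be set against the range between libraries, since Trbv5 was named for its low value. Cells with no single segment (487) had 31.9%.

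Trbv17 was less common in the miR-146a-/- library, in 79 of 825 cells (9.58%), where its cells had 45.4% Trbc1 (41.8% to 49.0%). Trbv13-3 led there with 179 cells (21.7%) at 30.5% Trbc1, and Trbv13-1 (129 cells) had 29.0% and Trbv29 (87 cells) 28.0%. In the DKO library Trbv16 was the single segment of 359 of 877 cells (40.9%), with 40.7% Trbc1 (38.4% to 43.0%), and the cells of Trbv1 (78) and Trbv15 (53) had 26.2% and 42.4%. The WT untreated library had few such cells, 145, led by Trbv14 (24 cells, 9.30% Trbc1), Trbv3 (19 cells, 26.8%) and Trbv1 (17 cells, 58.2%). By UMIs, too, Trbv14 (349 CPM), Trbv17 (1881 CPM), Trbv13-3 (686 CPM) and Trbv16 (942 CPM) led the beta segments of PD-1+ CD8 T cells in the 4 libraries. The 3 DEN-CDHFD libraries were thus led by a different beta segment each. Trbv1 cells were high in Trbc1 in the WT untreated library and below the class value in the WT DEN-CDHFD and DKO libraries.

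Without the Trbv17 cells, the Trbc1 percent in PD-1+ CD8 T cells of the WT DEN-CDHFD library exceeded that of the WT untreated library by 11.2 points, down from 20.5. The difference of miR-146a-/- from WT DEN-CDHFD was then 0.284 points, in place of -7.98. Leaving out Trbv17 was chosen after its cells' values were seen. Trbv17 cells of the WT DEN-CDHFD library with at least 5 Trbc UMIs held both constant genes by the bounds above in 264 of 282 cases (93.6%).

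**Figure D3:**
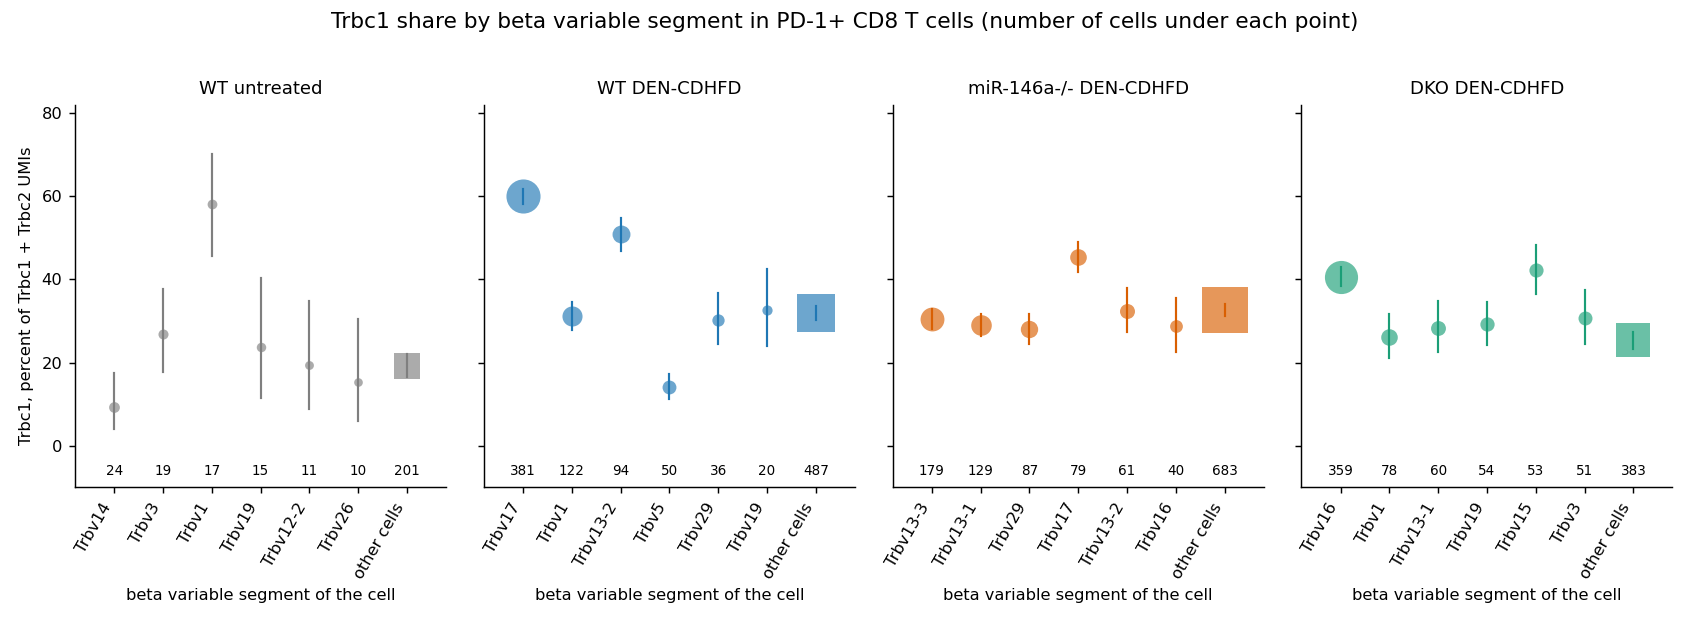
Percent of Trbc UMIs assigned to Trbc1 in PD-1+ CD8 T cells by single beta variable segment, for the 6 commonest segments of each library and for the other cells (square), with marker area proportional to the number of cells printed below. Trbv17 cells of the WT DEN-CDHFD library lie at 60.0% and Trbv5 cells of the same library at 14.1%.

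Beta constant transcripts were also present in NK-like and ILC1-like cells, which have no CD3 UMI by their gate. NK-like cells held 63.2, 87.6, 100.3 and 99.1 CPM of Trbc1 and 56.9, 87.8, 71.6 and 61.9 CPM of Trbc2, and ILC1-like cells held 128, 158, 168 and 162 CPM of Trbc1 and 167, 208, 171 and 182 CPM of Trbc2. Both classes were far above the B-cell-like background in 4 of 4 libraries. The mean log2 ratio of NK-like over B-cell-like cells was 4.22 for Trbc2 (range 3.71 to 4.70) and 4.96 for Trbc1 (4.27 to 6.35). The Trbc2 value moved to 5.51 with no limits on B-cell and myeloid UMIs and to 3.45 with gates applied after thinning. ILC1-like cells exceeded NK-like cells by 0.83 for Trbc1 (0.71 to 1.02) and 1.40 for Trbc2 (1.24 to 1.56). Trac was also above the B-cell-like background in both classes in 4 of 4 libraries, but it lay further below the T gate. Its mean log2 ratio of NK-like cells over the T gate was -4.13 (-4.77 to -3.65), against -0.91 for Trbc1 and -2.22 for Trbc2.

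Counted in cells thinned to 2000 UMIs each, a Trbc UMI was found in 16.8%, 27.9%, 28.1% and 25.3% of NK-like cells and in 39.8%, 50.1%, 46.8% and 48.0% of ILC1-like cells. The T gate itself gave 45.1%, 60.3%, 61.1% and 57.3%, and B-cell-like cells 1.78%, 1.09%, 0.464% and 1.37%. ILC1-like cells thus came close to the T gate, and NK-like cells lay between ILC1-like and B-cell-like cells in every library. At full depth the shares were 45.7%, 66.1%, 67.4% and 62.6% in NK-like cells, 73.8%, 83.9%, 81.4% and 81.5% in ILC1-like cells, 79.5%, 88.9%, 89.6% and 85.9% in the T gate, and 4.16%, 2.91%, 2.31% and 2.84% in B-cell-like cells. Median depths were 6515, 8025, 9505 and 8327 UMIs in NK-like, 6497, 8094, 7753 and 7357 in ILC1-like, 7070, 7368, 6994 and 6515 in T-gate, and 5585, 6706, 6938 and 6555 in B-cell-like cells. Thinning left out 12, 3, 3 and 6 NK-like cells, 18, 13, 2 and 11 ILC1-like cells, 169, 74, 55 and 95 T-gate cells and 30, 12, 2 and 12 B-cell-like cells. A Trac UMI was found in 3.004%, 2.67%, 1.97% and 1.79% of thinned NK-like cells.

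The beta constant transcripts of these innate classes came with few variable-region UMIs. The number of beta variable UMIs per Trbc UMI was 4.20, 4.02, 3.14 and 3.87 in PD-1+ CD8 T cells, 0.069, 0.042, 0.015 and 0.022 in NK-like cells, and 0.076, 0.030, 0.021 and 0.016 in ILC1-like cells. NK-like cells held 47, 33, 9 and 17 variable against 684, 787, 610 and 762 constant UMIs, and ILC1-like cells 61, 51, 19 and 23 against 799, 1713, 924 and 1398. The B-cell-like background, at 1.05, 0.718, 0.318 and 0.526, had a higher proportion than either innate class in 4 of 4 libraries. For the alpha chain, PD-1+ CD8 T cells had 2.45, 3.45, 1.81 and 3.03 alpha variable UMIs per Trac UMI, NK-like cells 0.176, 0.121, 0.1 and 0.073, and ILC1-like cells 0.536, 0.286, 0.385 and 0.211. Both innate classes were below PD-1+ CD8 T cells in 4 of 4 libraries, but the B-cell-like background (0.727, 0.1, 4 and 0.333, from 33, 20, 1 and 15 Trac UMIs) was not above them in the WT DEN-CDHFD library.

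Other T-cell genes were measured in the same innate classes. Themis, a thymocyte selection adapter, was at 287 to 350 CPM in CD8 T cells but at 1.27 to 7.13 CPM in NK-like and 2.22 to 20.3 CPM in ILC1-like cells, and Cd5 at 160 to 194, 0.85 to 2.25 and 0.43 to 7.76 CPM. Cd6 was at 128 to 162 CPM in CD8 T cells, 0.21 to 1.97 CPM in NK-like and 0 to 5.54 CPM in ILC1-like cells, and the T-lineage regulator Bcl11b at 130 to 159, 3.80 to 7.04 and 24.9 to 41.4 CPM. These 4 genes were at most 8.21 CPM in B-cell-like and 7.13 CPM in NK-like cells, and Bcl11b in ILC1-like cells was above both in 4 of 4 libraries. The part of T cells in the Trbc values of the innate classes was not tested. Cd247, the zeta chain shared with NK receptors, was at 222 to 261 CPM in NK-like and 64.8 to 86.5 CPM in ILC1-like cells, and Lat at 91.9 to 110.1 and 90.2 to 143 CPM. The genes named here are part of a list of 34 partner genes, and the low ones do not stand for it. Of the 34, 18 in NK-like and 19 in ILC1-like cells reached 50 CPM and 20 UMIs in a library of each pair compared below.

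Trdc encodes the delta constant region. Its mean level was highest in double-negative T cells, which have no Cd4, CD8, Foxp3 or Zbtb16 UMIs, at 40.3 CPM (SD 6.2), and its range lay above that of every class other than Treg. NK-like cells (21.3 CPM, SD 6.23) and NKT-like cells (19.3 CPM, SD 4.99) came next with overlapping ranges, followed by other CD8 T cells (11.6 CPM), Treg (11.2 CPM), naive-like CD8 T (7.25 CPM), ILC1-like (4.5 CPM), PD-1+ CD8 T (4.08 CPM) and CD4 T cells (3.38 CPM), whose neighbours overlapped in range. B-cell-like and myeloid cells were at 0.48 and 0.28 CPM. The Treg mean rests on the DKO library, at 36.7 CPM, where 44 UMIs came from 2 of 142 cells.

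In NK-like cells Trdc stood at 27.9 CPM (23.7 to 32.6), 25.0 CPM (20.6 to 30.1), 14.4 CPM (10.7 to 18.9) and 18.0 CPM (14.3 to 22.2), from 159, 112, 51 and 85 UMIs. In ILC1-like cells it stood at 7.76, 3.85, 3.67 and 2.71 CPM, from 21, 18, 10 and 11 UMIs. ILC1-like cells were lower in 4 of 4 libraries, with a mean log2 ratio to NK-like cells of -2.27 (range -2.67 to -1.82), the reverse of the order for Trbc1 and Trbc2. Trac was less separated between these classes, with a mean log2 ratio of -0.75 and a range of -1.52 to 0.11. NK-like cells exceeded the T gate in Trdc in 4 of 4 libraries, by a mean log2 ratio of 0.65.

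Delta variable segments were present beside Trdc in the innate classes. Trdv4 in NK-like cells was at 128, 94.8, 132 and 161 CPM and Trdv2-2 at 68.8, 52.2, 59.4 and 62.3 CPM, and in ILC1-like cells Trdv4 was at 179, 96.0, 87.3 and 105 CPM and Trdv2-2 at 34.0, 21.6, 29.3 and 35.5 CPM. Trdv4 in B-cell-like cells was at 2.98, 2.14, 1.10 and 1.15 CPM. Trdv5 reached at most 3.17 CPM in NK-like cells. Delta variable UMIs per Trdc UMI were 7.16, 6.01, 13.4 and 12.6 in NK-like cells and 27.5, 30.6, 32.0 and 51.9 in ILC1-like cells, above the 2.38, 1.83, 3.66 and 3.98 of double-negative T cells. In the background the proportion was 4, 5.33 and 6 in B-cell-like cells of the 3 libraries with a Trdc UMI there and 20, 2.62, 20 and 20.2 in myeloid cells, from 9 Trdc UMIs or fewer each. Delta variable UMIs thus outnumbered Trdc UMIs in the innate, double-negative T and background classes alike.

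Cells of the T gate with a Trdc UMI and no Trac UMI made up 3.001% (exact interval 2.56% to 3.495%, 160 of 5331 thinned cells), 1.98% (1.53% to 2.51%, 66 of 3340), 0.887% (0.607% to 1.25%, 32 of 3609) and 1.35% (0.988% to 1.79%, 46 of 3413). The WT untreated library had the highest share and the miR-146a-/- library the lowest. The differences were -1.02 points (-1.67 to -0.346) for WT DEN-CDHFD minus WT untreated, -1.09 points (-1.68 to -0.535) for miR-146a-/- minus WT, and 0.461 points (-0.033 to 0.976) for DKO minus miR-146a-/-, whose interval spans 0 after thinning. At full depth the shares were 4.13% (227 of 5500), 2.96% (101 of 3414), 1.15% (42 of 3664) and 2.40% (84 of 3508), and the differences -1.17 points (-1.93 to -0.373), -1.81 points (-2.50 to -1.16) and 1.25 points (0.642 to 1.88), none of which spans 0. The miR-146a-/- difference moved to -0.324 points with cells thinned to 1000 UMIs and to -0.46 points where 2 Trdc UMIs were asked for, and the first difference to -0.208 points with 2 Trdc UMIs, all with the same sign. In thinned B-cell-like cells the share was 0.178% in the WT untreated library and 0 in the others, where 3 cells would be 0.467%, 0.696% and 0.457%. Lack of a Trac UMI does not show lack of the transcript. Even at full depth, 1788, 964, 913 and 1032 T-gate cells had neither a Trac nor a Trdc UMI. Trac in the T gate was lowest in the WT untreated library (202 CPM) and highest in the miR-146a-/- library (268 CPM). The part of Trac detection in the Trdc+ Trac- shares was not tested.

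Within double-negative T cells the Trdc+ Trac- share was 5.38% (4.14% to 6.86%), 5.09% (3.53% to 7.08%), 4.09% (2.31% to 6.65%) and 5.99% (4.18% to 8.27%) of thinned cells, with overlapping intervals. Double-negative T cells themselves numbered 1191, 686, 382 and 606 of the T gate. In NKT-like cells the share was 1.86%, 3.87%, 4.26% and 3.68%. The order of the libraries in the whole T gate was therefore not seen in NKT-like cells, and in double-negative T cells the differences had the same signs as in the T gate but the DKO library was highest. NK-like cells, which lack CD3 by their gate, had shares of 6.01%, 4.31%, 3.65% and 2.99%, above the T gate in 4 of 4 libraries, and ILC1-like cells 1.24%, 1.27%, 0.604% and 0.187%.

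**Figure D4:**
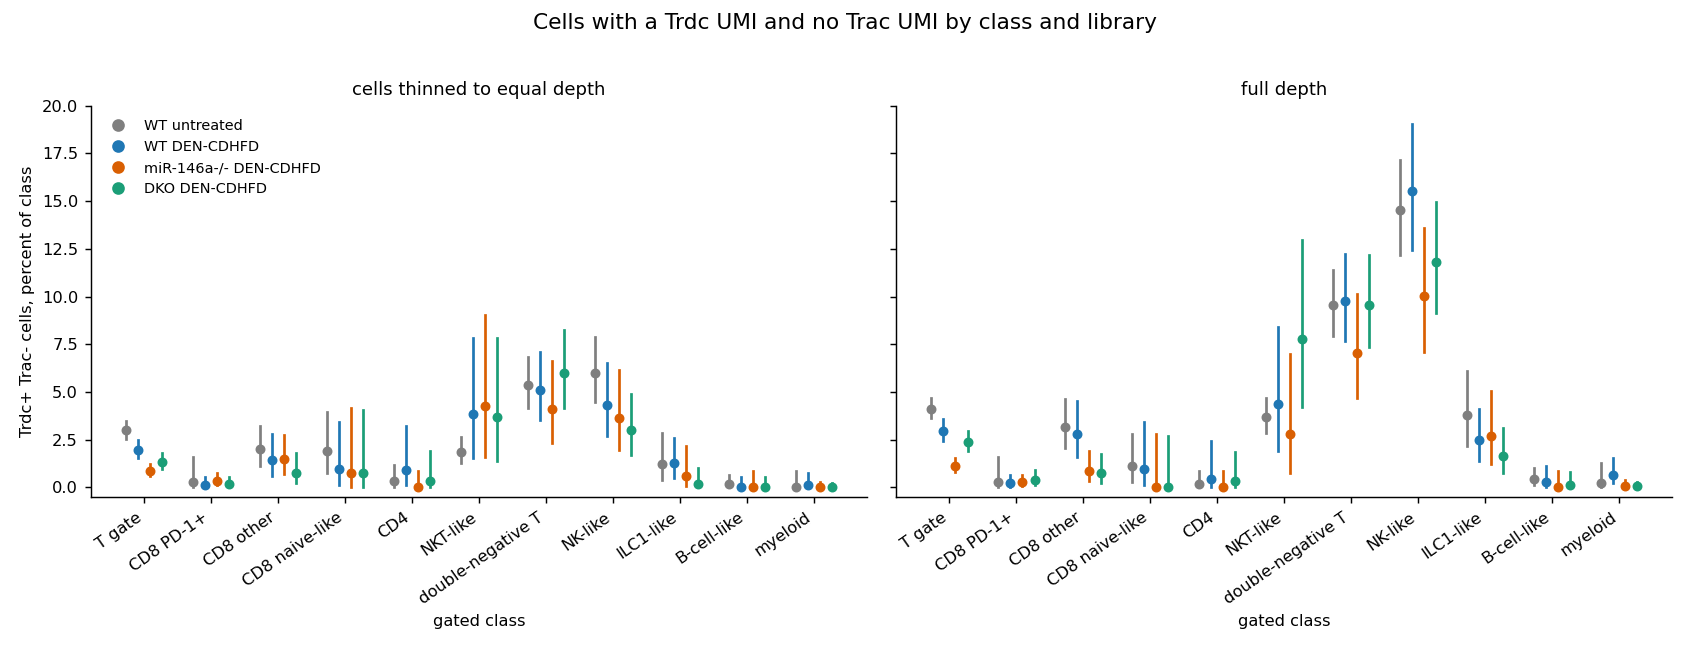
Percent of cells with a Trdc UMI and no Trac UMI by class and library, thinned to 2000 UMIs on the left and at full depth on the right, with exact binomial 95% bars. The T gate runs from 0.887% to 3.001% after thinning.

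The Trdc+ Trac- cells of the T gate (227, 101, 42 and 84 at full depth) were compared with its Trac+ Trdc- cells (3363, 2292, 2657 and 2342). Trdv5 was at 70.1, 54.2, 104 and 62.4 CPM in the former and at 0.48, 0, 0.09 and 0.21 CPM in the latter, so it was nearly confined to them within this comparison. Tcrg-V1, a gamma variable segment, was at 217, 112, 126 and 139 CPM against 20.9, 16.9, 15.3 and 38.2 CPM, Tcrg-C1 at 99.6, 72.6, 52.0 and 53.7 against 38.1, 9.58, 12.4 and 14.3 CPM, and Tcrg-C4 at 138, 103, 136 and 137 against 52.4, 37.3, 41.0 and 75.0 CPM. Tcrg-C1 and Tcrg-C4 were thus higher in Trdc+ Trac- cells in 4 of 4 libraries. Tcrg-C2 was at 90.9, 47.0, 47.0 and 72.4 CPM against 33.9, 27.9, 47.4 and 71.3 CPM, so it was higher in the WT libraries alone beyond counting error. Trbc2 was still present, at 222, 246, 203 and 209.6 CPM against 227, 395, 427 and 353 CPM.

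NK markers moved with this class, and were looked at after the NK-like values of Trdc were seen. The sum of Ncr1, Klrb1c, Eomes, Itga2, S1pr5 and Klra8 was 929, 1015, 1487 and 1638 CPM in Trdc+ Trac- cells and 281, 287, 301 and 327 CPM in Trac+ Trdc- cells. The most abundant of the 6 was Ncr1, at 381, 410.0, 626 and 693 CPM, with a UMI in 48.0%, 53.5%, 64.3% and 72.6% of Trdc+ Trac- cells. Ncr1 in Trac+ Trdc- cells was at 47.1, 42.9, 39.8 and 48.1 CPM. None of the 6 was at 0 in either set, 5 of 6 were higher in Trdc+ Trac- cells in 4 of 4 libraries, and Eomes was lower there in the WT DEN-CDHFD library (118 against 152 CPM). T-gate cells with neither a Trac nor a Trdc UMI (1788, 964, 913 and 1032) were in between, with sums of 664, 596, 759 and 999.6 CPM and Ncr1 at 255, 239, 298 and 410.4 CPM, so the higher NK marker levels were not limited to cells with Trdc. Their part in the Trdc shares was not tested.

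The gamma constant genes lie on chromosome 13: Tcrg-C1 (chr13:19214103-19217024, + strand), Tcrg-C2 (chr13:19304649-19307551, - strand) and Tcrg-C4 (chr13:19344558-19352756, + strand). Each has its own upstream variable segments in the locus. Their first coding exons of 330 bases are shown by the first 180 bases, because Tcrg-C1 and Tcrg-C2 are close in sequence and Tcrg-C4 is not. Capitals mark the 26 positions at which the 3 are not all the same.
Tcrg-C1: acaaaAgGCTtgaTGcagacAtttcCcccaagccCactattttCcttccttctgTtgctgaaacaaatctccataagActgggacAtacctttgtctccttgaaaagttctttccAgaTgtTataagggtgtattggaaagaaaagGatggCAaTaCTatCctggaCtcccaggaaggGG
Tcrg-C2: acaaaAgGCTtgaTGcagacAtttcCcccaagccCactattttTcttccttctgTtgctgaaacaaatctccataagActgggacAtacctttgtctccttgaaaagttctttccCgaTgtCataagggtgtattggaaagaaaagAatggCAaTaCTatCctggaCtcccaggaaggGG
Tcrg-C4: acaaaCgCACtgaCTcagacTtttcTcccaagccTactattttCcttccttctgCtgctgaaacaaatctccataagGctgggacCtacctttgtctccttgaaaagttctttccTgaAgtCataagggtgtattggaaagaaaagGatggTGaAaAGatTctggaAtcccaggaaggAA
These are chr13:19214103-19214282 (+ strand), chr13:19307372-19307551 (- strand) and chr13:19344558-19344737 (+ strand) of GRCm38. Over the exon Tcrg-C1 and Tcrg-C2 differ at 9 bases (97.3% identity), Tcrg-C1 and Tcrg-C4 at 59 (82.1%), and Tcrg-C2 and Tcrg-C4 at 61 (81.5%). Of the 90-base windows of the Tcrg-C1 transcript, 1.80% are shared with Tcrg-C2 and 0 with Tcrg-C4, so reads separate the gamma genes better than the beta genes.

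Each gamma constant gene had its own order of classes. The mean Tcrg-C1 level was highest in NKT-like (69.5 CPM, SD 17.8) and double-negative T cells (35.9 CPM, SD 11.04), which overlapped in range and lay above other CD8 T (12.2 CPM), ILC1-like (11.95 CPM), CD4 T (11.5 CPM) and PD-1+ CD8 T cells (8.33 CPM). Treg (4.48 CPM), naive-like CD8 T (1.60 CPM), NK-like (0.51 CPM), myeloid (0.50 CPM) and B-cell-like cells (0.19 CPM) followed with overlapping ranges. The mean Tcrg-C2 level was highest in PD-1+ CD8 T cells (69.0 CPM, SD 39.3), with NKT-like (47.8 CPM), other CD8 T (40.6 CPM) and double-negative T cells (33.6 CPM) overlapping below it, then CD4 T (11.2 CPM) and naive-like CD8 T cells (8.04 CPM), and it was 4.76 CPM in ILC1-like, 2.71 CPM in Treg, 0.27 CPM in myeloid, 0.25 CPM in B-cell-like and 0.24 CPM in NK-like cells. The mean Tcrg-C4 level was highest in ILC1-like cells at 262 CPM (SD 20.2), with no overlap with the next, double-negative T (109 CPM), NKT-like (103 CPM), PD-1+ CD8 T (68.5 CPM, SD 37.8) and other CD8 T cells (42.3 CPM). CD4 T (18.5 CPM), NK-like (15.8 CPM), naive-like CD8 T (5.89 CPM), Treg (4.07 CPM), myeloid (2.59 CPM) and B-cell-like cells (1.66 CPM) were lower.

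Tcrg-C4 and Tcrg-C2 in CD8 T cells were higher in the DKO than in the other libraries. Tcrg-C4 was at 32.7, 35.7, 45.5 and 92.0 CPM in CD8 T cells, with log2 ratios of 0.13 (-0.05 to 0.31), 0.35 (0.20 to 0.50) and 1.02 (0.89 to 1.14). Tcrg-C2 was at 27.7, 30.4, 57.6 and 92.3 CPM there, with log2 ratios of 0.13 (-0.06 to 0.32), 0.92 (0.78 to 1.08) and 0.68 (0.57 to 0.80). Over all CD8 T cells both genes were thus higher in miR-146a-/- than in WT DEN-CDHFD and higher again in DKO, with the larger ratio between miR-146a-/- and DKO for Tcrg-C4 and between WT and miR-146a-/- for Tcrg-C2. In PD-1+ CD8 T cells Tcrg-C4 was at 53.9, 39.9, 56.1 and 124 CPM, a log2 ratio of 1.15 (1.01 to 1.29) for DKO over miR-146a-/-, and Tcrg-C2 at 46.6, 35.5, 70.3 and 124 CPM. A Tcrg-C4 UMI was found in 11.4%, 5.07%, 8.06% and 20.05% of thinned PD-1+ CD8 T cells. In other CD8 T cells Tcrg-C4 was at 37.5, 40.3, 33.6 and 57.7 CPM, so there miR-146a-/- was not above WT DEN-CDHFD, and Tcrg-C2 was at 31.1, 29.2, 43.4 and 58.8 CPM. Naive-like CD8 T cells had 6 to 26 UMIs of Tcrg-C4 and 12 to 24 of Tcrg-C2 in a library, too few to show an order. The CD4 T cells did not share the order of the CD8 T class: the log2 ratio of DKO over miR-146a-/- was -0.28 (-1.02 to 0.42) for Tcrg-C4, from 28 and 46 UMIs, and the Tcrg-C2 ratio of miR-146a-/- over WT was -1.24 (-2.16 to -0.37), from 20 and 28 UMIs.

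Tcrg-C1 was instead highest in the WT untreated library. In the T gate it was at 38.9 CPM (37.1 to 40.8), 13.8 CPM (12.5 to 15.2), 13.8 CPM (12.5 to 15.2) and 16.1 CPM (14.7 to 17.7), a log2 ratio of -1.50 (-1.66 to -1.34) between the WT libraries, 0.00 (-0.20 to 0.20) for miR-146a-/- over WT and 0.23 (0.03 to 0.43) for DKO over miR-146a-/-. NKT-like cells, the class with most Tcrg-C1, made up 1680 of 5500, 184 of 3414, 143 of 3664 and 167 of 3508 T-gate cells. Within NKT-like cells Tcrg-C1 was at 73.7, 43.3, 81.4 and 79.7 CPM, so the WT untreated library did not stand above the miR-146a-/- and DKO libraries there. Within double-negative T cells it was at 51.3, 35.2, 25.3 and 31.7 CPM, the order of the T gate's first library kept. Tcrg-C4 over the whole T gate was at 59.3, 50.9, 48.2 and 86.5 CPM and Tcrg-C2 at 34.7, 27.7, 44.4 and 64.1 CPM, both highest in the DKO library.

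ILC1-like cells held Tcrg-C4 at 287 CPM (267 to 308), 262 CPM (247 to 277), 238 CPM (220 to 257) and 262 CPM (246 to 278). They exceeded the T gate in 4 of 4 libraries, by a mean log2 ratio of 2.14 (range 1.60 to 2.36), and NK-like cells by 4.18 (3.24 to 5.09), and the libraries differed little among themselves, with log2 ratios of -0.13, -0.14 and 0.14. A Tcrg-C4 UMI was found in 42.3%, 35.2%, 32.0% and 37.4% of thinned ILC1-like cells and in 69.8%, 69.3%, 69.97% and 69.6% at full depth, against 0.356%, 0.156%, 0 and 0.152% of thinned B-cell-like cells. Tcrg-C1 and Tcrg-C2 were low in the same ILC1-like cells, at 13.3, 15.8, 8.07 and 10.6 CPM and at 5.91, 4.06, 4.40 and 4.68 CPM. In NK-like cells Tcrg-C4 was at 11.2, 7.58, 25.1 and 19.4 CPM, a log2 ratio of 1.71 (1.14 to 2.34) for miR-146a-/- over WT from 89 and 34 UMIs.

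Gamma variable UMIs per gamma constant UMI were 0.198, 0.169, 0.185 and 0.175 in ILC1-like cells and 0.247, 0.25, 0.165 and 0.255 in NK-like cells, against 2.18, 2.09, 2.32 and 2.12 in PD-1+ CD8 T cells. In the background the proportion was 0.815, 0.312, 1 and 0.909 in B-cell-like and 0.286, 0.2, 0.515 and 0.364 in myeloid cells. Variable UMIs were thus fewer than constant UMIs in both innate classes, but NK-like cells were not below myeloid cells in the WT DEN-CDHFD library. The gamma segments with most UMIs in ILC1-like cells were Tcrg-V1, at 31.4, 28.2, 31.2 and 26.4 CPM, and Tcrg-V5, at 20.3, 15.2, 9.54 and 16.0 CPM, while Trgv2 was at 4.44, 1.07, 1.47 and 1.23 CPM. Tcrg-V3, Tcrg-V4, Tcrg-V6 and Tcrg-V7 had at most 15 UMIs in ILC1-like cells of any library. Trdv1, Trdv2-1, Trdv3 and Trdv5 had at most 2.

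The gamma constant gene differed with the gamma variable segment of the cell, a pairing looked at after the levels were seen. A single segment was called from at least 2 UMIs, and the 4 libraries were pooled. T-gate cells of Trgv2 (2310) had 47.8% of their 5404 gamma constant UMIs from Tcrg-C2, 41.6% from Tcrg-C4 and 10.6% from Tcrg-C1. Tcrg-V7 cells (69) had 76.9% and Tcrg-V6 cells (25) 70% from Tcrg-C1, and Tcrg-V4 cells (121) had 59.9% from Tcrg-C1 and 35.3% from Tcrg-C4. Tcrg-V1 cells (119) had 71.1% from Tcrg-C4, and Tcrg-V5 cells (15) 52.8% from Tcrg-C4 and 44.4% from Tcrg-C1. The leading constant gene thus differed between segments in the pooled cells, and none was exclusive to a segment. It also differed between libraries for 3 of them: Trgv2 cells of the WT untreated library had more Tcrg-C4 than Tcrg-C2, Tcrg-V4 cells of the WT DEN-CDHFD library had 59.0% Tcrg-C4 and 38.5% Tcrg-C1, and Tcrg-V5 cells of the WT untreated library had 63.2% Tcrg-C1. Tcrg-V3 cells (31) held 19 gamma constant UMIs, too few to show a leading gene. T-gate cells with no single segment (13396) had 52.1% from Tcrg-C4, 26.7% from Tcrg-C2 and 20.8% from Tcrg-C1. In ILC1-like cells Tcrg-C4 made up 95.9% (118 of 123 UMIs) with Tcrg-V1, 85.7% with Tcrg-V5 and 94.0% (3549 of 3777) with no single segment.

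The Tcrg-C2 percent of Trgv2 cells was 34.9%, 51.7%, 57.5% and 49.8% by library, and their Tcrg-C1 percent 23.0%, 8.66%, 5.64% and 4.46%. The WT untreated library thus had more Tcrg-C1 and less Tcrg-C2 beside the same variable segment. The classes with Trgv2 UMIs differed as well. In the WT untreated library NKT-like cells held 3090 Trgv2 UMIs and PD-1+ CD8 T cells 567, and in the DKO library 307 and 3953. Mean Tcrg-C1 was 69.5 CPM in NKT-like and 8.33 CPM in PD-1+ CD8 T cells. The part of class makeup in these percents was not tested. Tcrg-C4 made up 42.1%, 39.7%, 36.8% and 45.7% of gamma constant UMIs in these Trgv2 cells.

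**Figure D5:**
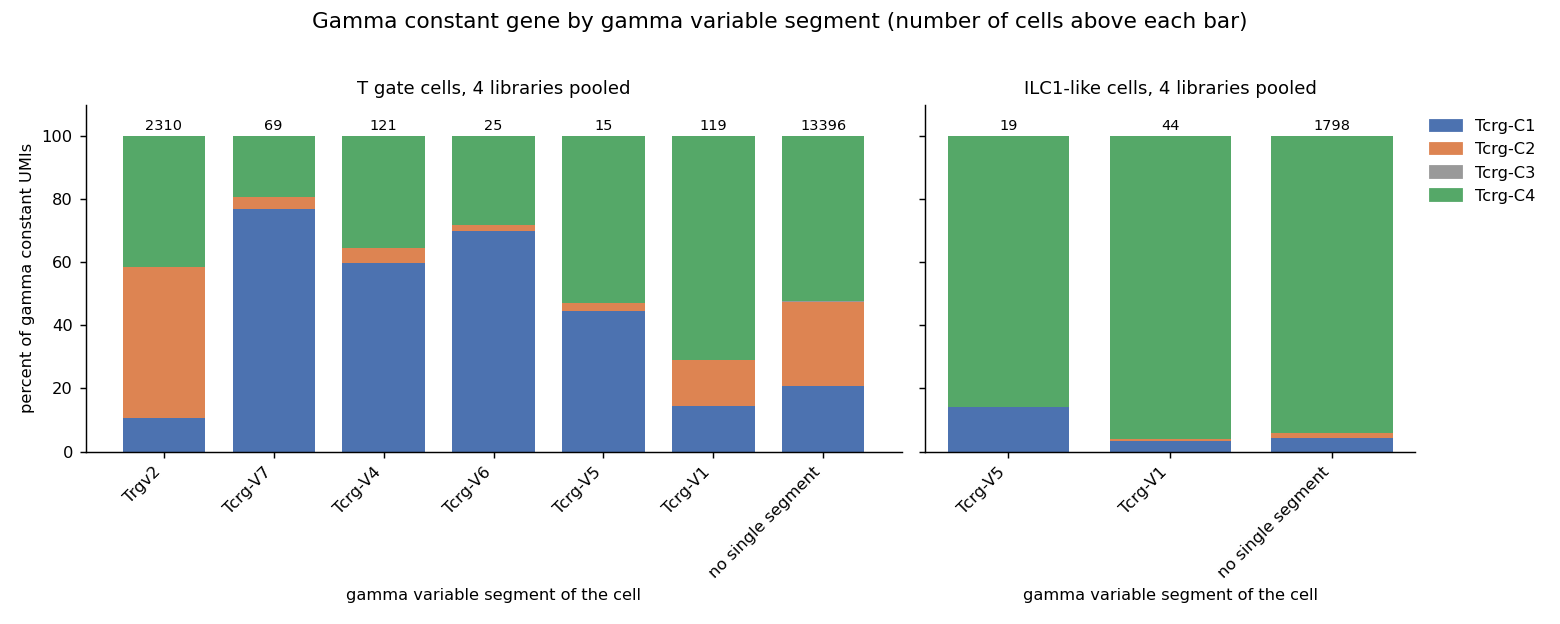
Percent of gamma constant UMIs from each gene by the single gamma variable segment of the cell, in the T gate and in ILC1-like cells, 4 libraries pooled, with the number of cells above each bar; segments with under 20 gamma constant UMIs are left out and Tcrg-C3 is too small to see. Trgv2 cells of the T gate are 47.8% Tcrg-C2, and ILC1-like cells are mostly Tcrg-C4 whatever the segment.

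NKT-like cells were checked for the invariant receptor of mouse NKT cells, which joins an alpha chain of Trav11 to beta chains often of Trbv13-2, Trbv29 or Trbv1. Trbv13-2 was the single beta segment of 344 of 788 such cells (43.7%), 44 of 81 (54.3%), 30 of 65 (46.2%) and 31 of 80 (38.8%). Trav11 was at 19.0, 18.4, 20.6 and 17.9 CPM, with a UMI in 10.6%, 11.4%, 11.9% and 11.4% of cells, and at most 0.69 CPM in PD-1+ CD8 T cells. Trbv29 was at 120, 135, 122 and 237 CPM and Trbv1 at 220.0, 148, 145 and 157 CPM in NKT-like cells, and Trav11d at most 0.79 CPM. Trbv13-2 had the most UMIs of any variable segment in NKT-like cells of 4 of 4 libraries (682, 486, 507 and 456 CPM). It was also first in double-negative T cells of 3 libraries (439.9, 193 and 223 CPM) and second in the WT DEN-CDHFD library (201 CPM). Its rank thus did not set NKT-like cells apart from double-negative T cells, but its level was higher in NKT-like cells in 4 of 4 libraries. CD4 T cells were led by Trbv13-2 (434 and 399.8 CPM) in both WT libraries, Trbv16 (470.1 CPM) in the miR-146a-/- and Trbv19 (293 CPM) in the DKO library. Alpha variable UMIs per Trac UMI were 0.83, 0.926, 0.844 and 1.04 in NKT-like cells, lower than in PD-1+ CD8 T cells in 4 of 4 libraries.

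A list of 34 partner genes (CD3 and zeta chains, adapters, proximal signalling, recombination and precursor genes, and regulators) was compared between libraries, counting a gene where either library of the pair reached 50 CPM and 20 UMIs. In CD8 T cells 25, 25 and 24 partners passed that minimum in the 3 comparisons (WT DEN-CDHFD over WT untreated, miR-146a-/- over WT, DKO over miR-146a-/-). Id2 and Tox were higher at least 2-fold in the first (log2 ratios 1.26 and 1.15), where Tcf7 was lower (-1.29), none in the second, and Fcer1g was higher in the third (1.17). In CD4 T cells 26 passed in each comparison, with none past 2-fold in the first, Fcer1g, Tyrobp, Trat1 and Tcf7 lower in the second (-1.62, -1.15, -1.05 and -1.003) and Fcer1g and Tyrobp higher in the third (1.49 and 1.36). Of 18 partners in NK-like cells only Tcf7 passed 2-fold, in the first comparison (1.01), and of 19 in ILC1-like cells only Tcf7, in the second (-1.09). Rag1, Rag2 and Ptcra had no UMI in CD8 T cells of any library.

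Members were read against the same rule. In CD8 T cells 3, 4 and 5 of the 7 members passed the minimum, 1 of them was past 2-fold in the first comparison (Trbc1, higher), none in the second, and 1 in the third (Tcrg-C4, higher). Over all genes tested there, 112 of 3457 (3.24%), 54 of 3426 (1.58%) and 23 of 3383 (0.68%) were past 2-fold. The members' median log2 ratios were 0.74, 0.23 and -0.10, beside 0.06, -0.01 and 0.02 over all genes. In CD4 T cells 3 members passed in each comparison with none past 2-fold and medians of 0.17, 0.20 and -0.26, where 1.57%, 3.58% and 0.971% of all genes were past 2-fold. In NK-like cells 2 members passed in each comparison with none past 2-fold and medians of 0.55, -0.05 and -0.11, beside 1.22%, 2.05% and 0.171% of all genes. In ILC1-like cells 3 members passed in each with none past 2-fold and medians of 0.30, -0.14 and 0.09, beside 1.59%, 1.71% and 0.218% of all genes. Since a member could pass through the library in which it is high, these counts describe the members and do not rank them.

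The genes whose levels ran most like each member were found by Spearman correlation over 44 class-by-library sums, which share libraries and are not independent, among 5938 genes with at least 50 CPM in 1 of them. Trac was nearest to Ptpn13 (0.96), Bcl11b (0.96), Cd3e (0.94), Lat (0.93) and Slain1 (0.92), and Trbc2 to Atxn1 (0.92), Lat (0.92), Lime1 (0.92), Cd3e (0.91) and Idh3a (0.90). Trbc1 was nearest to Tapbpl (0.84), Nlrc5 (0.83), Tsr3 (0.82), Gm12216 (0.82) and Idnk (0.82), with no CD3 gene among them. The T and innate gates used CD3 UMIs, so correlations with CD3 genes are partly set by the gates. Trdc was nearest to Klra9 (0.81), Klra7 (0.80), Klra1 (0.78) and Klra3 (0.78), receptors of the Ly49 family of NK cells, and Smad3 (0.76). The NK-like gate used Klra8, of the same family, so correlations with Ly49 genes are partly set by that gate. Tcrg-C1 was nearest to Atp8a2 (0.92), Acoxl (0.91), Zfp683 (0.90), Tcrg-V4 (0.89) and Prrt1 (0.88), Tcrg-C2 to Trgv2 (0.95), Ifit1bl1 (0.89), Tcrg-V4 (0.84), Dop1b (0.84) and Acoxl (0.84), and Tcrg-C4 to Cd160 (0.95), Tcrg-V1 (0.93), Cd7 (0.93), Rgs3 (0.92) and 2010300C02Rik (0.92). Between members, Trac ran with Trbc2 (0.89) more than with Trbc1 (0.51) or Trdc (0.16), and Tcrg-C1 ran with Tcrg-C4 (0.80) and Tcrg-C2 (0.78).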

How the data were processed

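The tables hold raw UMI counts deposited by the authors for 5′ single-cell libraries, made with Cell Ranger 7.0.1 per the file headers, while the published methods name an earlier version, and the handling of intronic reads is unknown. Kept cells had from 600 to 6000 features, and mitochondrial UMIs made up no more than 5%. No doublet caller was run. Classes came from marker gates on raw UMIs, and the T and innate gates allowed at most 2 UMIs of B-cell and at most 2 of myeloid markers. UMIs of each gene were summed over a class and scaled to the class total (CPM), and log2 ratios used a prior of 0.5 counts. Poisson, binomial and conditional binomial intervals are exact, at 95%. Shares of cells were taken after thinning each cell to 2000 UMIs (random seed 1), with shallower cells left out. Shared windows of sequence were counted on GRCm38 with its GENCODE annotation. The named genes are the 7 members, 34 partner genes, the variable segments Trav11, Trav11d, Trbv13-2, Trbv29 and Trbv1, all gamma and delta variable segments, the 3 variable segments with most UMIs in a class, and the 5 genes nearest to each member by Spearman correlation. Members and lists were chosen with earlier results of these data known. Alternatives changed 1 choice at a time: cell filter, gates, thinning, prior, minimum, leaving out the 8% of cells with most UMIs, mean over cells and TMM scaling (edgeR 4.0.16, R 4.3.3). The rest ran in Python 3.11.15 with numpy 2.4.6, pandas 2.3.3, scipy 1.17.1 and matplotlib 3.10.9.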

Additional observations from a re-analysis of the deposited data

How the results depend on the processing

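Of the values of the main results under the alternatives, 15 moved outside their bounds with the same direction, 1 changed sign, and the rest did neither. The bounds were the counting interval, or a set margin for gene counts. For ratios between classes they were the mean over the 4 libraries plus or minus the SD between them. Among the other results 309 stayed and 33 moved, with none reversed. With no limits on B-cell and myeloid UMIs, the Trac log2 ratio of WT DEN-CDHFD over WT untreated in CD8 T cells was 0.26. The Trbc2 log2 ratio of NK-like over B-cell-like cells was then 5.51, and gene calls past 2-fold numbered 1051. Such calls are summed over CD8 T, CD4 T, NK-like and ILC1-like cells and their comparisons, so a gene can count more than once. With gates applied after thinning, the same Trac ratio was 0.34, the Trbc2 ratio 3.45, and the Trbc1 percent of WT DEN-CDHFD minus WT untreated 30.4 points. The mean over cells gave a Trac ratio of -0.02 for DKO over miR-146a-/-. A minimum of 10 CPM gave 2443 such calls, in place of 671, since more genes are then tested. Without Trbv17 cells, chosen after seeing the data, the Trbc1 differences were 11.2 points and, for miR-146a-/- minus WT, 0.284 points, the reversed value. For Trdc+ Trac- cells, asking for 2 Trdc UMIs gave -0.208 points for WT DEN-CDHFD minus WT untreated and -0.46 points for miR-146a-/- minus WT. The latter was -1.81 points without thinning and -0.324 points at 1000 UMIs. The DKO minus miR-146a-/- difference was 1.25 points without thinning and 1.02 points with a T gate from 1 CD3 UMI. Apart from the gene counts, the cause was not tested. Depth limits members with few UMIs in the innate classes, such as Tcrg-C1 and Tcrg-C2 in NK-like cells, and with 1 library per group the intervals hold no variation between mice.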
